A study of Homo sapiens with 12 samples.

Results

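The genes for albumin, alpha-fetoprotein and 8 further plasma carriers and related secreted proteins were followed in HepG2 cells, a human hepatocellular carcinoma line, under low or high glucose and with or without valproic acid (VPA), an inhibitor of histone deacetylases. The genes were taken by symbol, and no measured value entered the rule, though the list was chosen with earlier results of these data known. Of the 10 symbols (ALB, AFP, TTR, TF, AHSG, AMBP, RBP4, SERPINA1, GC and FETUB), 9 have a row in the table of 16389 genes. GC, which encodes the vitamin D-binding protein, was not analysed here. RBP4 and the low-level FETUB were higher and AMBP was lower in high than in low glucose. In low glucose TF, AHSG, AMBP, RBP4 and SERPINA1 were lower with VPA. Of these only RBP4 was called in all 16 alternative fits. In high glucose AMBP and RBP4 were lower and TTR was higher with VPA, and RBP4 and TTR were called in all 16. The AMBP and FETUB calls, those between high and low glucose included, did not hold in all of these fits.

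Hepatocytes make most of the proteins that circulate in plasma. Albumin carries fatty acids, bilirubin, hormones and drugs, and alpha-fetoprotein is its fetal relative, which the liver all but stops making after birth and hepatocellular carcinoma often makes again. Transthyretin and retinol-binding protein travel as a complex that brings retinol and thyroid hormone to tissues, transferrin brings iron. The others bind mineral, haem products, vitamin D or proteases.

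Cells were grown for 48 h in medium with 5.5 mM glucose (LG) or 20 mM glucose (HG), and part of each was then given 1 mM VPA for a further 12 h (LGV and HGV). Each group held 3 libraries of poly(A)-selected RNA, 12 in all. Nothing in the sample descriptions says that the 3 came from separate cultures, so p-values measure only the spread between these libraries. All libraries came from 1 tumour-derived line, which limits it as a model of liver. Whether the untreated cells were harvested at 48 h or together with the treated ones is not stated, so 12 h more of culture cannot be told apart from VPA in the comparisons with untreated cells. The libraries held 29798442 to 45572694 counted reads, at which depth 3 reads correspond to 0.0658 to 0.101 CPM, the read count scaled to a library of common size. Levels below are CPM with TMM-scaled library sizes. In bulk RNA, fewer cells of a kind and less RNA per cell cannot be told apart. The share of reads on mitochondrial genes moved with the groups and its part in the results was not tested. It ran from 5.70% to 6.28% in LG, 7.50% to 7.72% in HG, 6.42% to 7.62% in LGV and 7.95% to 8.91% in HGV. TXNIP, a gene known to be induced by glucose, was at 6.21 to 6.58 CPM in LG and 107 to 389 CPM in HG, and ARRDC4, its relative, at 1.01 to 1.25 and 5.23 to 15.4 CPM. H1F0, a histone gene known to rise with inhibitors of histone deacetylases, was at 1537 ± 81.7 CPM (SD, n = 3) in LG, 1411 ± 139 in LGV, 2170 ± 143 in HG and 2540 ± 109 in HGV, so it was not higher with VPA in low glucose. All 11 hepatocyte markers had a row, and their summed level was 43790 to 47338 CPM in LG, 43757 to 50463 in HG, 32120 to 33068 in LGV and 38356 to 47942 in HGV. This sum includes ALB, TTR and SERPINA1. Marker sums of other cell types also moved between groups, and their part in the results was not tested. For cholangiocytes (3 of 5 markers with a row) the sum was 442 to 492 CPM in LG, 546 to 569.8 in HG, 461 to 535 in LGV and 534 to 626 in HGV. For stellate cells or fibroblasts (3 of 6) it was 55.1 to 78.04, 54.7 to 68.1, 43.7 to 51.2 and 50.6 to 54.2 CPM in the same order, and for endothelial cells (3 of 5) 2.55 to 3.25, 2.49 to 4.16, 2.76 to 3.93 and 4.53 to 5.35 CPM. For leukocytes (3 of 6) it was 1069 to 1426, 1242 to 1393, 912 to 1066 and 1439 to 1552 CPM. Without overlap, the leukocyte sum was below all other groups in LGV and above them in HGV, and the endothelial sum was above them in HGV. Also without overlap, the stellate sum was lower in both LGV and HGV than in LG and HG. The cholangiocyte sum was lower in LG than in HG and HGV and lower in LGV than in HG, again without overlap. In the leukocyte list LYZ gave nearly all of the sum (mean 1255 CPM), and PTPRC, CD3E and CD68 had no row.

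Albumin was among the most abundant transcripts of these cells. By read count ALB ranked first or second of all genes in every library, and AFP, AHSG, SERPINA1 and TF ranked between 5 and 21. AMBP ranked 25 to 38, RBP4 63 to 223, TTR 543 to 1439 and FETUB 10944 to 12457. The 9 genes together took 5.29% ± 0.38 (SD, n = 3) of all counted reads in LG, 5.91% ± 0.23 in HG, 4.48% ± 0.10 in LGV and 5.89% ± 0.80 in HGV. ALB alone took 2.31% ± 0.19, 2.66% ± 0.24, 1.99% ± 0.09 and 2.69% ± 0.42. The 3 LGV libraries lay below every other library in the summed share, and HGV replicate 3 stood apart at 6.82% (95% Wilson interval 6.81% to 6.83%, counting error only) from the other HGV libraries at 5.40% and 5.46%.

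**Figure D1:**
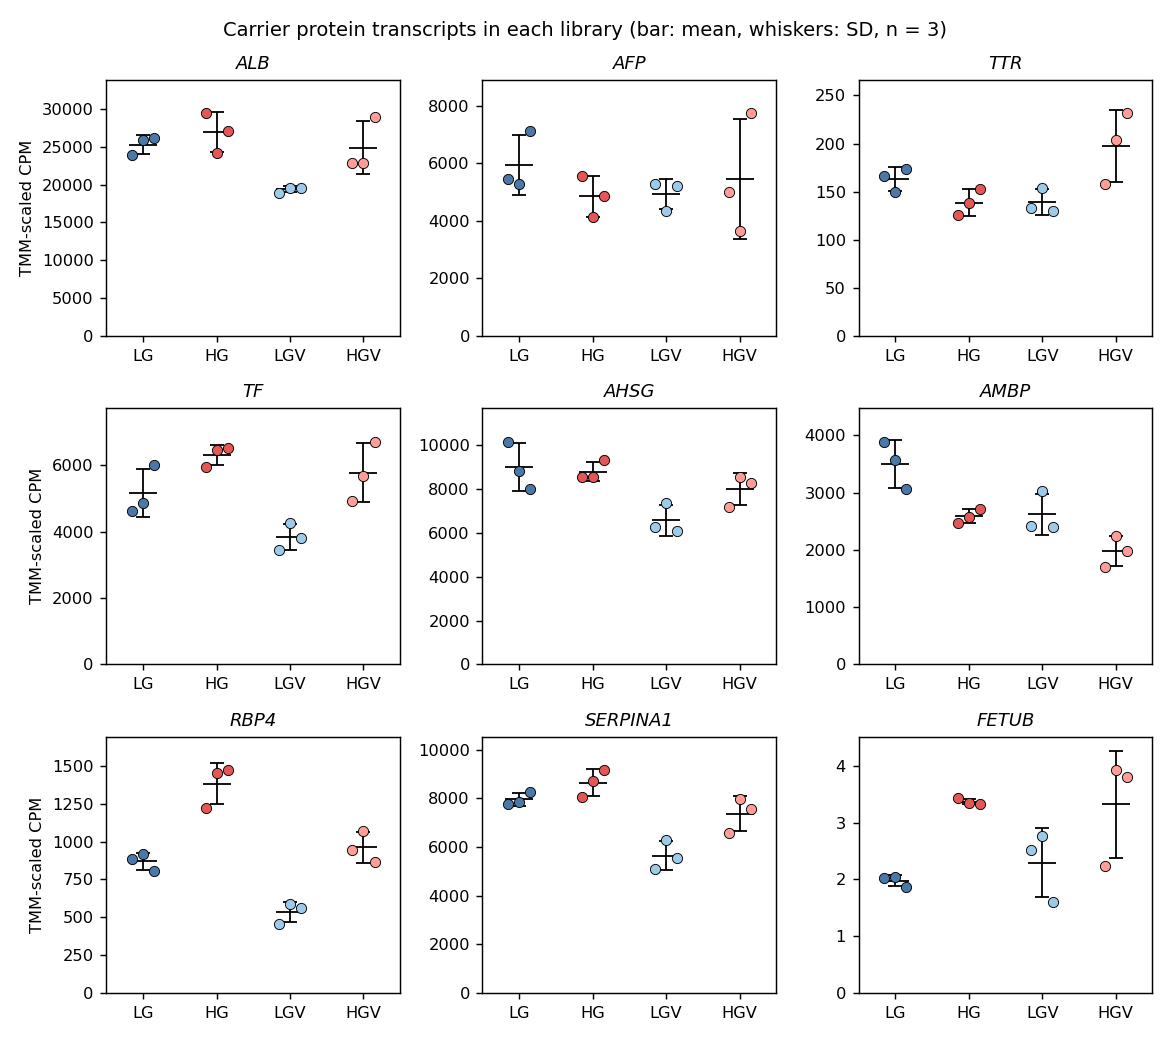
TMM-scaled CPM of the 9 genes (1 panel each, linear axis from 0) in each library of LG, HG, LGV and HGV; points are libraries, bars means and whiskers SD (n = 3). RBP4 is highest in HG and lowest in LGV with no overlap between these and LG, AMBP is lowest in HGV, TTR is highest in HGV, and AFP in HGV spans 3656 to 7746 CPM.

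Levels can be set between genes only per length, and the order in LG was read on 2 lengths. Per kilobase of coding sequence, ALB was highest in LG at 13174 ± 654 CPM per kb (SD, n = 3), then AHSG at 8154 ± 989, SERPINA1 at 6286 ± 211, AFP at 3117 ± 540, AMBP at 2889 ± 345, TF at 2304 ± 326, RBP4 at 1329 ± 84.6, TTR at 370.2 ± 27.4 and FETUB at 1.72 ± 0.09. The libraries of AFP and AMBP overlapped, as did those of AMBP and TF, and the other neighbours in this order were apart. Per kilobase of all annotated exons the order was ALB (7372 CPM per kb), AHSG (4062), AFP (1858), AMBP (1849), SERPINA1 (1625), RBP4 (596), TF (198), TTR (75.0) and FETUB (0.976). TF, whose annotation merges to 26038 bp of exon against 2240 bp of coding sequence, moved from place 6 to 7. SERPINA1 moved from place 3 to 5. Coding length was chosen after the data were seen.

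ALB and AFP lie head to tail on the plus strand of chromosome 4 (GRCh37, chr4:74262831-74287199 and chr4:74296855-74321891), with 9655 bp between them. The hepatocyte factor HNF1 is known to act at the promoters of both genes and of SERPINA1. The sequences shown are the 150 bases before a RefSeq start (GRCh38.p14) of these 3 genes and of RBP4, the gene with the largest changes among the abundant carriers, 5′ to 3′ on the strand of the gene, with the HNF1 half-site GTTAAT and the TATA box TATAAA in capitals.
ALB, chr4:73404137-73404286, plus strand: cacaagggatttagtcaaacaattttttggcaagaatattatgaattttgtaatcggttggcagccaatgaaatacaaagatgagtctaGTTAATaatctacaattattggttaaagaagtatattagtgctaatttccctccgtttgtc
AFP, chr4:73436071-73436220, plus strand: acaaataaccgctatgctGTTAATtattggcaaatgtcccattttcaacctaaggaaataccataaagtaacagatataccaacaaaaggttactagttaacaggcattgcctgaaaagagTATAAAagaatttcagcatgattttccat
SERPINA1, chr14:94388603-94388752, minus strand: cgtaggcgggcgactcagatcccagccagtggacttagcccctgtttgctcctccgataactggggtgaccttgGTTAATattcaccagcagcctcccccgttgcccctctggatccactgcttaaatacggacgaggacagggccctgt
RBP4, chr10:93601236-93601385, minus strand: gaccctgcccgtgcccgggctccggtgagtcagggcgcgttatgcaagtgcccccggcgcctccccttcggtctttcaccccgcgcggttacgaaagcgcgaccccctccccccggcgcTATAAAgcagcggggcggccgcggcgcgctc

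Over the window from 250 bases before to 50 bases after the start, read on both strands, GTTAAT was found in 6.88% of 35116 RefSeq promoters, and among the 8 genes with an entry (13 promoters in all) in ALB, AFP and SERPINA1. It began 61 bases before the start in ALB, 132 in AFP and 76 in SERPINA1. TATAAA was in 11.5% of all promoters and in AFP, RBP4 and FETUB. The C/EBP letters TTGCNNAA were in 10.5% of all promoters and in ALB, AFP, TF, AHSG, RBP4 and FETUB, and the FOXA letters TGTTTNC were in 18% and in ALB, AHSG, AMBP, SERPINA1 and FETUB. The HNF4 letters CAAAGTCCA were in 0.384% of promoters and in AHSG, and the nuclear receptor half-site AGGTCA was in 13.8% and in TF, AMBP and SERPINA1. The E-box CACGTG (7.26% of promoters) and the 13-base HNF1 palindrome (0.0057%) were in no window of these genes. In RBP4 the TATAAA matches of the other starts overlapped the same letters on the opposite strand. No other motifs shared bases. TTR was not in the table of promoters.

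Across the 4 comparisons of 2 groups, the 9 genes were called by edgeR's quasi-likelihood test with Benjamini-Hochberg adjustment over all genes tested (adjusted p of 0.05 or less). All 9 passed the filter on low counts in each. In HG against LG, RBP4 and FETUB rose and AMBP fell, so 2 of 9 were called higher and 1 lower, where 12% of all tested genes were called higher and 12.7% lower. With VPA in low glucose (LGV against LG), TF, AHSG, AMBP, RBP4 and SERPINA1 fell, 5 of 9, where 19.9% of all genes were called lower and 21.7% higher. No carrier was called higher there, and the 6 with an unadjusted p under 0.05 (ALB beside the 5 named) were all lower. Such a p, in either direction, was found for 7842 of all 15944 genes tested in this comparison. With VPA in high glucose (HGV against HG), AMBP and RBP4 fell, 2 of 9, where 20.2% of all genes were called lower, and TTR rose, 1 of 9, where 25.8% were called higher. Between the VPA groups (HGV against LGV), RBP4, TF and TTR were higher in high glucose, 3 of 9, where 21.2% of all genes were called higher, and AMBP was lower, 1 of 9, where 19.5% were called lower. The median log2 fold change of the 9 genes was 0.11 in HG against LG, -0.41 in LGV against LG, -0.13 in HGV against HG and 0.37 in HGV against LGV, and that of all tested genes was 0.01, -0.01, 0.02 and 0.01 in the same order.

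**Figure D2:**
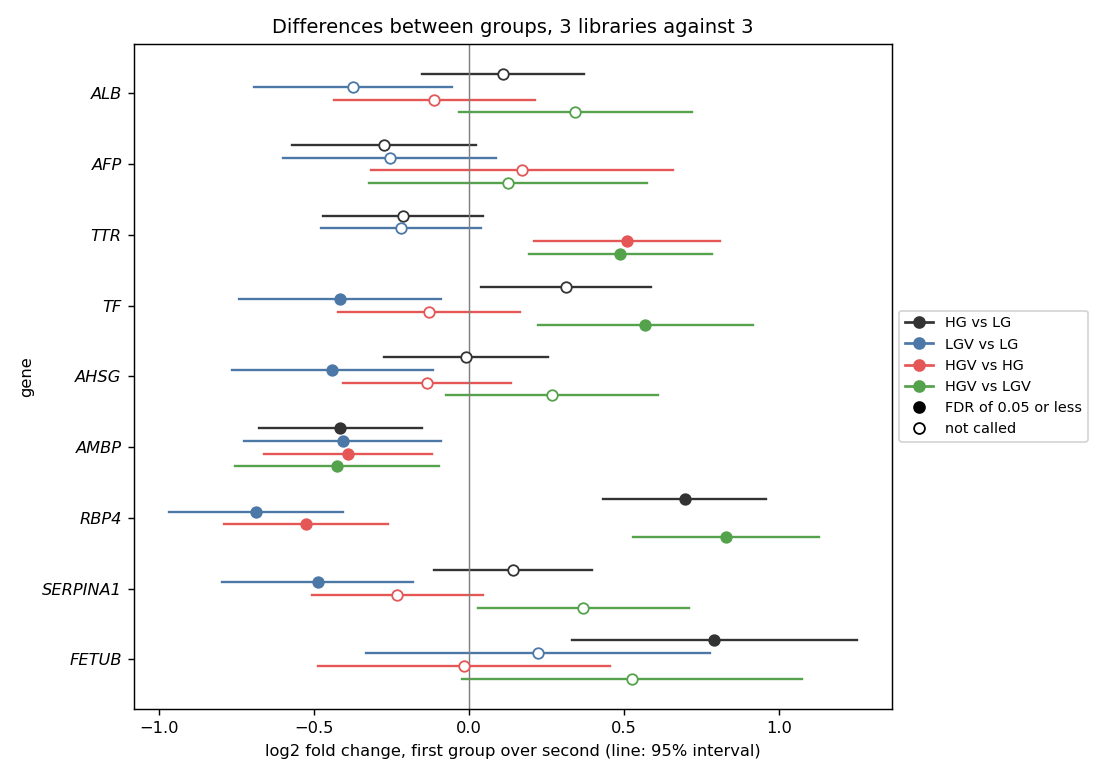
Log2 fold change of the 9 genes (vertical axis) in HG vs LG, LGV vs LG, HGV vs HG and HGV vs LGV (horizontal axis, first group over second), each with its 95% interval; filled points have an adjusted p of 0.05 or less. The 4 RBP4 intervals lie clear of 0, at 0.70, -0.69, -0.52 and 0.83, the 4 AMBP points lie between -0.43 and -0.39, and TTR has its filled points at 0.51 and 0.49.

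With TMM scaling, abundant genes as a class moved downwards in these libraries. Library size alone as the scale moved the median of all genes up by 0.16 in LGV against LG and by 0.12 in HGV against HG. In HG against LG it moved up by 0.095 and in HGV against LGV by 0.086. The median of abundant genes was not computed on that scale. The 8 carriers other than FETUB were also set, under TMM, beside the 1914 genes with a mean of 100 CPM or more. The median log2 fold change of those genes was -0.17 in HG against LG, -0.17 in LGV against LG, -0.14 in HGV against HG and -0.18 in HGV against LGV, and that of the 8 carriers was 0.05, -0.41, -0.13 and 0.36. In HG against LG 5.69% of the abundant genes were called higher and 27.5% lower, beside 1 carrier (RBP4) and 1 (AMBP) of 8. In LGV against LG 8.41% were called higher and 33.8% lower, beside 5 carriers lower. In HGV against HG 14.3% were called higher and 32.9% lower, beside 1 carrier higher and 2 lower. In HGV against LGV 9.93% were called higher and 32.6% lower, beside 3 carriers higher and 1 lower. These comparisons share their LG, HG, LGV or HGV libraries in pairs and are not independent of each other.

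**Figure D3:**
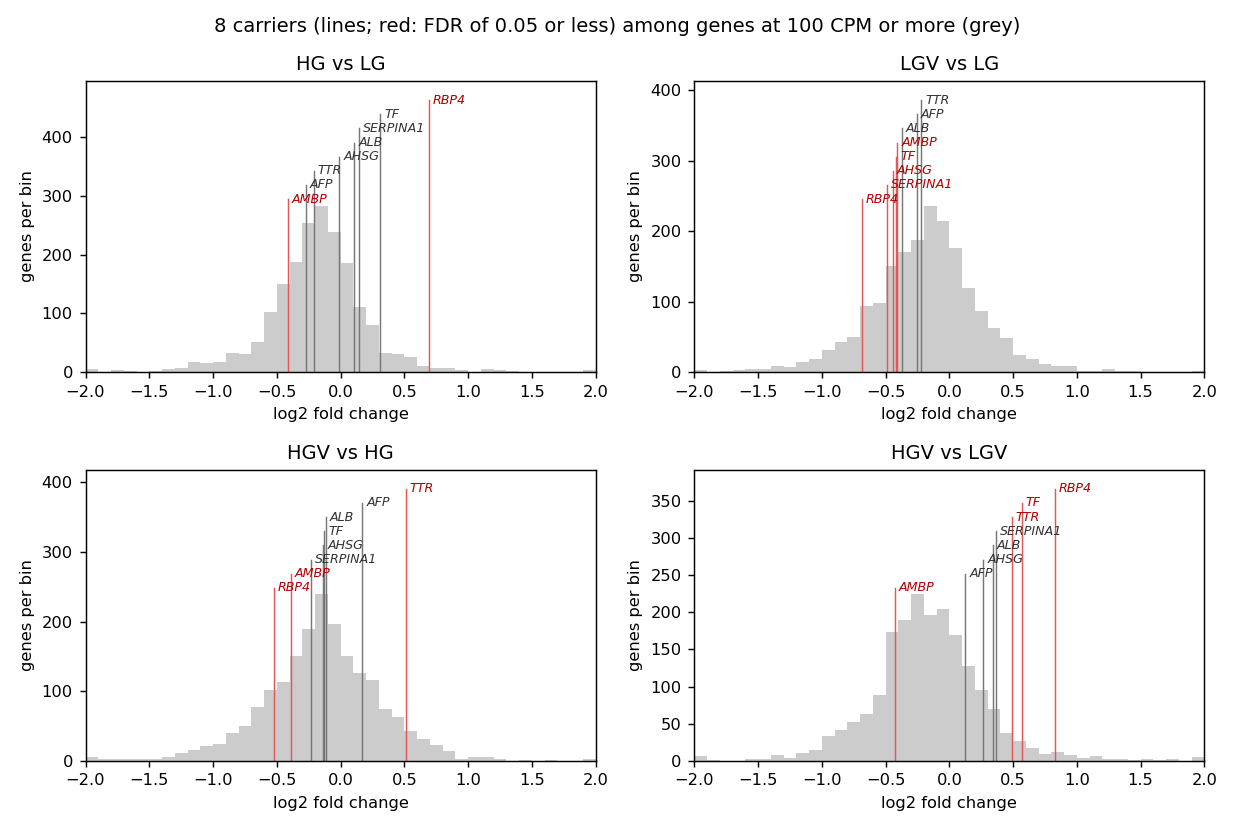
Number of genes at a mean of 100 CPM or more per bin of log2 fold change (grey; values beyond 2 in either direction are in the end bins) in each of 4 comparisons, with a line for each of the 8 carriers at that level (red, adjusted p of 0.05 or less). All 8 carriers lie below 0 in LGV vs LG, as do 1341 of the 1914 genes at that level. In HGV vs LGV 7 carriers lie above 0, as do 599 of the 1914.

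A test of whether VPA acted differently in the 2 glucose media (the interaction term over all 12 libraries) called 7 genes of 16389 (0.0427%) and 1 of the 1914 abundant genes (0.0522%), and it called no carrier. One carrier, TTR, had an unadjusted p under 0.05, as had 1852 genes in all, and the likelihood ratio test of edgeR called TTR and DESeq2's Wald test no carrier. The fitted term was above 0 for 8 of the 9 genes, FETUB being below. It was above 0 for 8894 of all 16389 genes and for 1143 of the 1914 abundant ones (median 0.06). The median of the term over the 9 carriers was 0.27 on the log2 scale against 0.04 over all genes.

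ALB was at 23856, 25859 and 26166 CPM in LG and at 29437, 24161 and 27092 CPM in HG. The VPA libraries were at 18946, 19601 and 19600 CPM in LGV and at 22807, 22881 and 28991 CPM in HGV. All 3 LGV libraries were lower than every other library, and the LG, HG and HGV libraries overlapped. The log2 fold change was -0.37 ± 0.15 (SE, n = 3 per group) in LGV against LG, a level 22.8% lower, with an adjusted p of 0.0581 in edgeR's quasi-likelihood test, which missed the threshold. It passed in 4 of 16 alternatives, among them the likelihood ratio test (adjusted p 0.00761), the DESeq2 Wald test (0.00354) and 1 edgeR fit of all 12 libraries (0.0284). The difference was 0.34 ± 0.18 in HGV against LGV (adjusted p 0.135), and these groups did not overlap either. It passed in 6 of 16 alternatives, the same 3 fits, upper quartile factors (0.0474) and library size alone (0.0229) among them. ALB differed by 0.11 in HG against LG (95% interval -0.15 to 0.37) and by -0.11 in HGV against HG (-0.44 to 0.21, above 0 at 0.01 with library size alone as the scale), and neither passed.

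AFP, the fetal albumin relative and a marker used for hepatocellular carcinoma, was at 5443, 5266 and 7131 CPM in LG and at 5569, 4133 and 4860 CPM in HG. With VPA it was at 5290, 4347 and 5204 CPM in LGV and at 4997, 3656 and 7746 CPM in HGV. The highest library of LG and that of HGV stood well above the others of their group, and all 4 groups overlapped. No comparison was called, with log2 fold changes of -0.27 (95% interval -0.57 to 0.02) in HG against LG, -0.26 (-0.60 to 0.09) in LGV against LG, 0.17 (-0.32 to 0.66) in HGV against HG and 0.13 (-0.32 to 0.57) in HGV against LGV. Without HGV replicate 3 the last 2 turned to -0.17 and -0.21.

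The read ratio of ALB to AFP, which needs no scaling between libraries, was 4.38, 4.91 and 3.67 in LG and 5.29, 5.85 and 5.57 in HG. All HG libraries were above all LG libraries. The mean log2 ratio was 0.38 higher in HG, with a 2-sided exact permutation p of 0.1 (0.2 adjusted over 8 ratio tests), the smallest that 3 libraries against 3 can give. The ratio was 3.58, 4.51 and 3.77 in LGV and 4.56, 6.26 and 3.74 in HGV, and the other 3 comparisons overlapped.

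**Figure D4:**
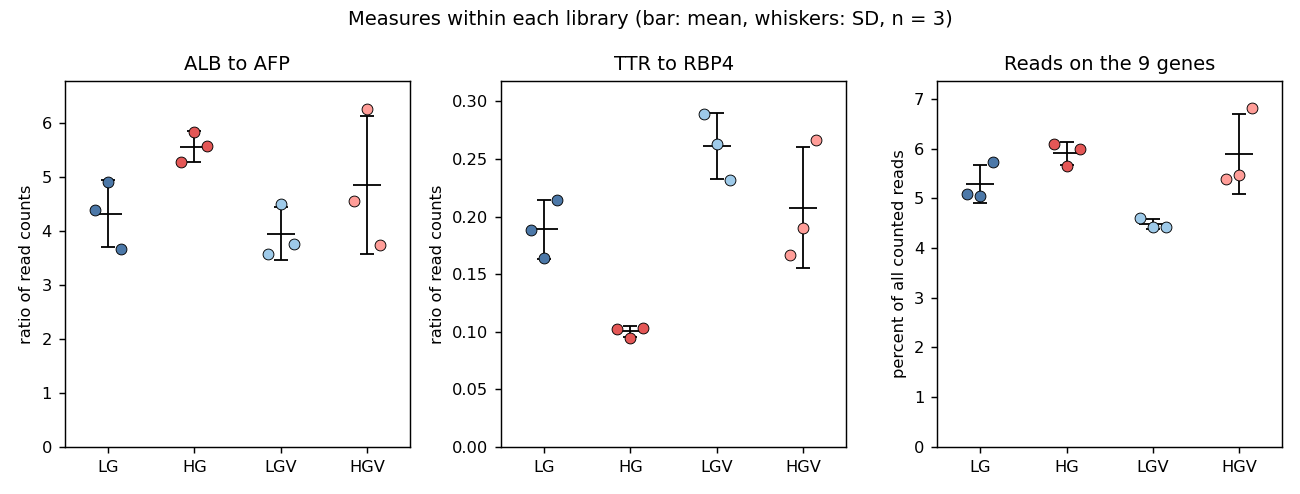
Read ratio of ALB to AFP, read ratio of TTR to RBP4, and percent of all counted reads on the 9 genes, per library of LG, HG, LGV and HGV (bars are means, whiskers SD, n = 3, axes from 0). The TTR to RBP4 ratio is lowest in HG at 0.10 ± 0.005 with no overlap with any group, and the share of the 9 genes is lowest in LGV.

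RBP4, the plasma carrier of retinol, is on chromosome 10 (GRCh37, chr10:95351444-95361501, minus strand) and was called in all 4 comparisons, as was AMBP. It was at 883, 916 and 808 CPM in LG and at 1225, 1453 and 1473 CPM in HG. The VPA libraries were at 459, 586 and 562 CPM in LGV and at 947, 1072 and 868 CPM in HGV. Every HG library was above and every LGV library below all others, while LG and HGV overlapped. RBP4 was 1.62-fold higher in HG than in LG (log2 fold change 0.70 ± 0.13, SE, n = 3 per group, adjusted p 0.000637, edgeR) and fell with VPA by 37.9% in low glucose (-0.69 ± 0.13, adjusted p 0.000732). It fell with VPA by 30.5% in high glucose (-0.52 ± 0.12, adjusted p 0.00358) and was 1.77-fold higher in HGV than in LGV (0.83 ± 0.14, adjusted p 0.000218). The 2 VPA effects were not shown to differ (interaction 0.17, 95% interval -0.20 to 0.55, adjusted p 0.776). RBP4 was called in all 16 alternatives of each of the 4 comparisons, those without 1 library included.

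TTR, or transthyretin, carries thyroid hormone and holds RBP4 in the circulation, and it is on chromosome 18 (GRCh37, chr18:29136972-29178796, plus strand). It was at 166, 150 and 174 CPM in LG and at 125, 138 and 153 CPM in HG. With VPA it was at 133, 154 and 130 CPM in LGV and at 158, 203 and 232 CPM in HGV. All HGV libraries were above all HG and LGV libraries, and they overlapped with LG. TTR was 1.42-fold higher in HGV than in HG (log2 fold change 0.51 ± 0.14, SE, n = 3 per group, adjusted p 0.00914, edgeR), which was called in all 16 alternatives. It was 1.4-fold higher in HGV than in LGV (0.49 ± 0.14, adjusted p 0.0102). The second call was lost without HGV replicate 3 (0.36, adjusted p 0.0695) and without LGV replicate 3 (0.44, adjusted p 0.0620). In low glucose the VPA difference was -0.22 (95% interval -0.48 to 0.04, adjusted p 0.161) and in HG against LG it was -0.21 (-0.47 to 0.05, adjusted p 0.218). The interaction was 0.74 ± 0.19 (unadjusted p 0.000814, adjusted p 0.114, adjusted p from 0.0257 to 0.315 over all alternatives, under the threshold with the likelihood ratio test alone).

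The read ratio of TTR to RBP4, partners in plasma, was 0.19, 0.16 and 0.21 in LG, 0.10, 0.095 and 0.10 in HG, 0.29, 0.26 and 0.23 in LGV, and 0.17, 0.19 and 0.27 in HGV. HG was below all other groups, and LGV was above LG. The log2 ratio differed by -0.91 in HG against LG, by 0.47 in LGV against LG and by 1.02 in HGV against HG, none with overlap, each with a 2-sided exact permutation p of 0.1 (0.2 adjusted over 8 tests), the smallest possible. HGV and LGV overlapped (difference -0.36, exact permutation p 0.3, adjusted 0.4).

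TF, or transferrin, the iron carrier of plasma, is on chromosome 3 (GRCh37, chr3:133464884-133515485, plus strand). It was at 4632, 4857 and 5995 CPM in LG and at 5956, 6441 and 6519 CPM in HG. The VPA libraries were at 3455, 4255 and 3816 CPM in LGV and at 4931, 5668 and 6708 CPM in HGV. Every LGV library was below all others, and HGV overlapped with both untreated groups. TF was 1.48-fold higher in HGV than in LGV (log2 fold change 0.57 ± 0.17, SE, n = 3 per group, adjusted p 0.0105, edgeR) and 25.0% lower in LGV than in LG (-0.42 ± 0.15, adjusted p 0.0408). The first call was lost without HGV replicate 3 (0.45, adjusted p 0.0672) and without LGV replicate 3 (0.56, adjusted p 0.0581). The second was lost with upper quartile factors (-0.34, adjusted p 0.0702), with library size alone (-0.27, adjusted p 0.118) and without any 1 library other than LGV replicate 2, with values from -0.50 (without LG replicate 1) to -0.28 (without LG replicate 3). In HG against LG the difference was 0.31 (95% interval 0.04 to 0.59, adjusted p 0.0884), which passed without LG replicate 3 (0.44, adjusted p 0.00476), with upper quartile factors (0.40, adjusted p 0.0285) and with library size alone (0.40, adjusted p 0.0293). In HGV against HG it was -0.13 (-0.42 to 0.17). TF shares 122 bp of exon with SRPRB on the same strand, so a few of its reads may be uncertain.

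AHSG (fetuin-A), which binds calcium phosphate in plasma, and FETUB (fetuin-B), its relative and an inhibitor of an egg-coat protease, are neighbours on chromosome 3 (GRCh37, chr3:186330849-186339107 and chr3:186353758-186370930, plus strand), 14650 bp apart. AHSG was at 10169, 8830 and 8007 CPM in LG and at 8561, 8537 and 9309 CPM in HG. With VPA it was at 6260, 7373 and 6097 CPM in LGV and at 7189, 8566 and 8301 CPM in HGV. All LGV libraries were below all LG and HG libraries and overlapped with HGV. AHSG was 26.3% lower in LGV than in LG (log2 fold change -0.44 ± 0.15, SE, n = 3 per group, adjusted p 0.0304, edgeR). This call was lost without LG replicate 1 (-0.35, adjusted p 0.165), LG replicate 2 (-0.46, adjusted p 0.0646), LGV replicate 1 (-0.40, adjusted p 0.0800) or LGV replicate 3 (-0.37, adjusted p 0.149), and with library size alone (-0.28, adjusted p 0.05198). It differed by -0.01 in HG against LG (95% interval -0.27 to 0.26, above 0 under several other scalings), by -0.14 in HGV against HG (-0.41 to 0.13) and by 0.27 in HGV against LGV (-0.07 to 0.61), and none of these passed.

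FETUB was detected at low level, with 54, 82 and 73 reads in LG, 108, 112 and 119 in HG, 84, 85 and 60 in LGV, and 73, 165 and 129 in HGV. Its levels were 2.02, 2.05 and 1.86 CPM in LG and 3.42, 3.35 and 3.33 CPM in HG, and 2.52, 2.76 and 1.60 CPM in LGV and 2.24, 3.92 and 3.79 CPM in HGV. HG was above LG with no overlap and little spread, and LGV and HGV each ranged widely. FETUB was 1.73-fold higher in HG than in LG (log2 fold change 0.79 ± 0.22, SE, n = 3 per group, adjusted p 0.0138, edgeR), which missed the threshold without HG replicate 3 (0.83, adjusted p 0.05002). The differences of 0.22 in LGV against LG (95% interval -0.33 to 0.78), -0.02 in HGV against HG (-0.49 to 0.45, above 0 with 2 other scalings) and 0.53 in HGV against LGV (-0.02 to 1.07) did not pass, and the last did without HGV replicate 1 (0.74, adjusted p 0.0430). An antisense gene, HRG-AS1, which was not in the table, shares 84 bp of its exons.

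AMBP encodes a precursor that is cut into alpha-1-microglobulin, a haem-binding carrier, and bikunin, a protease inhibitor, and is on chromosome 9 (GRCh37, chr9:116822407-116840608, minus strand). It was at 3889, 3571 and 3060 CPM in LG and at 2468, 2575 and 2719 CPM in HG. The VPA libraries were at 2425, 3033 and 2405 CPM in LGV and at 1708, 2235 and 1985 CPM in HGV. LG was above all other libraries and HGV below all others, while HG and LGV overlapped. AMBP was lower by 25.0% in HG than in LG (log2 fold change -0.41 ± 0.13, SE, n = 3 per group, adjusted p 0.0217, edgeR), by 24.6% in LGV than in LG (-0.41 ± 0.15, adjusted p 0.0394), by 23.7% in HGV than in HG (-0.39 ± 0.12, adjusted p 0.0214) and by 25.6% in HGV than in LGV (-0.43 ± 0.16, adjusted p 0.0373). It was thus the carrier that was lower both with high glucose and with VPA, and the interaction was 0.03 (95% interval -0.37 to 0.43). All 4 calls were lost with upper quartile factors (adjusted p 0.0512, 0.0671, 0.0522 and 0.0842 in the same order), and with library size alone that in LGV against LG (0.0793) and that in HGV against HG (0.0655). Each was also lost when certain single libraries were left out. In HG against LG this held for every library but LG replicate 3, with adjusted p up to 0.138 (-0.32 without LG replicate 1), and in LGV against LG for LG replicates 1 and 2 and LGV replicates 1 and 3, with adjusted p up to 0.181 (-0.33 without LGV replicate 3). In HGV against HG it held for HG replicates 2 and 3 and HGV replicate 1, with adjusted p up to 0.0918 (-0.35 without HG replicate 3), and in HGV against LGV for LGV replicates 2 and 3 and HGV replicates 1 and 3, with adjusted p up to 0.172 (-0.33 without HGV replicate 1).

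SERPINA1 encodes alpha-1-antitrypsin, the main inhibitor of neutrophil elastase in plasma, and is on chromosome 14 (GRCh37, chr14:94843084-94857030, minus strand). It was at 7773, 7852 and 8270 CPM in LG and at 8056, 8709 and 9167 CPM in HG. With VPA it was at 5090, 6271 and 5540 CPM in LGV and at 6576, 7964 and 7560 CPM in HGV. All LGV libraries were below every other library. All HGV libraries were also below all HG libraries, and LG overlapped with both HG and HGV. SERPINA1 was 28.7% lower in LGV than in LG (log2 fold change -0.49 ± 0.14, SE, n = 3 per group, adjusted p 0.0134, edgeR). The call was lost without LGV replicate 1 (-0.41, adjusted p 0.0505) or LGV replicate 3 (-0.46, adjusted p 0.06765). It differed by 0.37 in HGV against LGV (95% interval 0.03 to 0.71, adjusted p 0.0767), by -0.23 in HGV against HG (-0.51 to 0.04, adjusted p 0.156) and by 0.14 in HG against LG (-0.11 to 0.40, adjusted p 0.420), none of which passed. The first passed in 6 of 16 alternatives, among them the likelihood ratio test (adjusted p 0.0216), the Wald test (0.0185), 1 fit of 12 libraries (0.0201), upper quartile factors (0.0220) and library size alone (0.00675).

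Some of the 9 genes followed each other over the 12 libraries. By Pearson's r of log2 CPM, a description without a test over libraries that share 4 groups and their scaling, RBP4 and SERPINA1 were at 0.90, TF and SERPINA1 at 0.89, AHSG and SERPINA1 at 0.88 and TF and ALB at 0.86. The neighbours ALB and AFP were at 0.46 and the neighbours AHSG and FETUB at 0.35. AMBP was at 0.46 with AHSG and between -0.37 and 0.25 with the others. Among 11954 genes above the level bound, those most like ALB included ATAD2 (0.93), G3BP1 (0.92), UGT2B10 (0.91) and SUPT16H (0.90), and those most like AFP were CSE1L (0.89), TRIM24 (0.88), WWP1 (0.86), ZNF799 (0.84) and NMD3 (0.84). All r are for n = 12 libraries.

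The relatives of SERPINA1, the clade A serpins, are a family of plasma protease inhibitors and hormone carriers, and many of them share its cluster on chromosome 14. Of 8 others tested, 5 rose and 1 fell in HG against LG (median log2 fold change 0.61), 6 fell in LGV against LG (-1.07), 2 rose and 5 fell in HGV against HG (-0.60), and 6 were higher in HGV than in LGV (0.89). Of all tested genes, 12% and 12.7%, 21.7% and 19.9%, 25.8% and 20.2%, and 21.2% and 19.5% were called higher and lower in these comparisons in the same order. SERPINA3, alpha-1-antichymotrypsin, was at 12.3 ± 7.19 CPM (SD, n = 3) in LG, 46.1 ± 6.53 in HG, 2.14 ± 0.62 in LGV and 14.7 ± 8.58 in HGV. Its log2 fold changes were 1.91 ± 0.26 (SE), -2.51 ± 0.35, -1.65 ± 0.32 and 2.75 ± 0.34 in the order given, with adjusted p of 4.63e-05, 5.1e-05, 0.00115 and 1.04e-05 (edgeR). SERPINA10, an inhibitor of coagulation factors, fell with VPA from 22.1 to 4.05 CPM in low glucose and from 27.4 to 5.92 CPM in high glucose (-2.44 ± 0.24 and -2.21 ± 0.14, adjusted p 1.8e-06 and 1.46e-07). SERPINA7, the thyroxine-binding globulin, was at 172 CPM in LG, 259.9 in HG, 74.4 in LGV and 172 in HGV, and was called in HG against LG (0.61 ± 0.17, adjusted p 0.0152), LGV against LG (-1.20 ± 0.19, adjusted p 0.000149), HGV against HG (-0.60 ± 0.12, adjusted p 0.00115) and HGV against LGV (1.19 ± 0.12, adjusted p 1.54e-06). SERPINA3 shares 1585 bp of exon with another gene of the table on the same strand, and its reads are uncertain to that extent.

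Of 22 other plasma carriers and binding proteins tested, 7 rose and 2 fell in HG against LG, 4 rose and 10 fell of 21 in LGV against LG, 6 rose and 8 fell in HGV against HG, and 10 were higher and 3 lower in HGV against LGV. The shares of all tested genes called higher and lower were 12% and 12.7%, 21.7% and 19.9%, 25.8% and 20.2%, and 21.2% and 19.5% in that order. HP, haptoglobin, which binds free haemoglobin, had the largest fall of these with VPA in low glucose. It was at 127.8 ± 94.4 CPM (SD, n = 3) in LG, 550.2 ± 45.3 in HG, 19.0 ± 5.60 in LGV and 130.3 ± 59.8 in HGV (log2 fold changes 2.13 ± 0.30, -2.74 ± 0.38, -2.08 ± 0.27 and 2.76 ± 0.27, SE, adjusted p 7.95e-05, 4.69e-05, 5.74e-05 and 1.01e-06, edgeR). ORM2, an acute-phase carrier of basic drugs, fell from 198.9 to 45.4 CPM with VPA in high glucose (-2.13 ± 0.13, adjusted p 9.77e-08). PON1, a lipoprotein-bound esterase, rose with VPA from 0.436 to 1.82 CPM in low glucose and from 0.455 to 2.94 CPM in high glucose (1.99 ± 0.38 and 2.68 ± 0.30, adjusted p 0.000675 and 1.69e-05). Without VPA its counts were low (SD 0.265 CPM in LG and 0.0666 CPM in HG), so the size of the rise is uncertain. HP and ORM2 each have a near-identical copy (HPR and ORM1), so the split of their reads is uncertain. SHBG, the carrier of sex steroids, was at 16.3 CPM in LG and 6.28 CPM in HG (-1.35 ± 0.19, adjusted p 7.6e-05).

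The gene neighbours of the 2 carrier pairs moved in both directions. Around ALB and AFP, 3 other genes were tested, and ANKRD17 was called lower in HG against LG (-0.47 ± 0.13, SE, adjusted p 0.0158) and in HGV against LGV (-0.64 ± 0.15, adjusted p 0.00306). COX18 was lower in LGV against LG (-0.58 ± 0.20, adjusted p 0.0297) and higher in HGV against LGV (0.48 ± 0.17, adjusted p 0.0286). Around AHSG and FETUB, 8 others were tested. There 2 rose and 1 fell in HG against LG, 3 rose and 2 fell in LGV against LG, 4 rose and 3 fell in HGV against HG, and 1 was higher and 3 lower in HGV against LGV. In the same order, 12% and 12.7%, 21.7% and 19.9%, 25.8% and 20.2%, and 21.2% and 19.5% of all tested genes were called higher and lower. DNAJB11, a co-chaperone of the endoplasmic reticulum, was at 373 CPM in LG and 83.5 CPM in HG (-2.14 ± 0.15, adjusted p 1.66e-08), and KNG1, the kininogen precursor of bradykinin, was at 4.02 CPM in LG and 14.2 CPM in HG (1.84 ± 0.18, adjusted p 1.37e-06). ST6GAL1, which adds sialic acid to secreted glycoproteins, fell with VPA by 0.64 ± 0.17 in low glucose (adjusted p 0.0086) and by 0.95 ± 0.10 in high glucose (adjusted p 1.01e-05) on the log2 scale. DNAJB11 overlaps TBCCD1 on the opposite strand (381 bp), and whether counting used strand was not stated.

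The transcription factors known to act on ALB and AFP were lower with VPA where they were called. Of 19 tested, 2 rose and 2 fell in HG against LG, 8 fell in LGV against LG, 12 fell in HGV against HG, and 2 were higher and 5 lower in HGV against LGV. Of all tested genes, 12% and 12.7%, 21.7% and 19.9%, 25.8% and 20.2%, and 21.2% and 19.5% were called higher and lower in these comparisons in the same order. CEBPD, an acute-phase C/EBP factor, fell from 17.5 to 5.63 CPM in low glucose (-1.63 ± 0.22, SE, adjusted p 3.05e-05, edgeR) and from 30.7 to 7.03 CPM in high glucose (-2.12 ± 0.22, adjusted p 7.02e-06). ZHX2, a repressor of AFP in adult liver, fell from 71.8 to 29.0 CPM and from 61.6 to 20.7 CPM (-1.30 ± 0.12 and -1.57 ± 0.11, adjusted p 1.25e-06 and 2.3e-07). AFP itself was called in neither comparison.

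On the receptor side of transferrin, 11 genes were tested, of which 3 rose and 3 fell in HG against LG, 1 rose and 6 fell in LGV against LG, 1 rose and 5 fell in HGV against HG, and 3 were higher and 1 lower in HGV against LGV. The shares of all tested genes called higher and lower were 12% and 12.7%, 21.7% and 19.9%, 25.8% and 20.2%, and 21.2% and 19.5% in that order. TFR2, the iron-sensing transferrin receptor of hepatocytes, was at 146 ± 24.01 CPM (SD, n = 3) in LG, 213 ± 1.47 in HG, 91.0 ± 16.5 in LGV and 141 ± 14.95 in HGV, and was called in all 4 comparisons (0.57 ± 0.13, -0.67 ± 0.15, -0.60 ± 0.10 and 0.62 ± 0.14, SE, adjusted p 0.00351, 0.00245, 0.000494 and 0.00182, edgeR). TFRC, the uptake receptor, was at 359.8 CPM in LG and 225.9 CPM in HG (-0.65 ± 0.14, adjusted p 0.00209). SLC40A1, the iron exporter ferroportin, rose with VPA in high glucose from 29.9 to 64.9 CPM (1.12 ± 0.16, adjusted p 8.98e-05), and FTL, the ferritin light chain, fell with VPA in low glucose from 3975 to 2441 CPM (-0.69 ± 0.13, adjusted p 0.000814).

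On the retinol and thyroid hormone side of RBP4 and TTR, 2 of 10 genes tested fell in HG against LG, 3 of 11 rose and 2 fell in LGV against LG, 2 rose and 2 fell in HGV against HG, and 3 were higher and 4 lower in HGV against LGV. In the same order, 12% and 12.7%, 21.7% and 19.9%, 25.8% and 20.2%, and 21.2% and 19.5% of all tested genes were called higher and lower. DHRS3, which reduces retinal to retinol, fell with VPA from 109 to 21.5 CPM in low glucose and from 117 to 28.9 CPM in high glucose (-2.33 ± 0.15 and -2.02 ± 0.11, SE, adjusted p 4.55e-08 and 5.17e-08, edgeR). RARG, a retinoic acid receptor, rose from 1.31 to 4.61 CPM and from 1.29 to 5.72 CPM (1.83 ± 0.22 and 2.14 ± 0.18, adjusted p 1.37e-05 and 1.34e-06).

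In the vitamin D list, which belongs to the carrier GC, 1 of 7 genes tested fell in HG against LG, 2 of 9 rose and 3 fell in LGV against LG, 3 rose and 4 fell in HGV against HG, and 2 were higher and 1 lower in HGV against LGV. Of all tested genes, 12% and 12.7%, 21.7% and 19.9%, 25.8% and 20.2%, and 21.2% and 19.5% were called higher and lower in these comparisons in the same order. LRP2, or megalin, the endocytic receptor for carriers of vitamins, was at 0.159 and 0.190 CPM in LG and HG and at 11.2 and 10.9 CPM in LGV and HGV (adjusted p 4.06e-09 and 1.51e-08, edgeR). VDR, the vitamin D receptor, was at 0.142 and 0.266 CPM and rose to 1.41 and 4.51 CPM (adjusted p 1.45e-05 and 1.83e-07). Without VPA, LRP2 and VDR rested on few reads per library, as 3 reads correspond to 0.0658 to 0.101 CPM. The size of their rises is therefore uncertain. CYP27A1, a sterol and vitamin D hydroxylase, fell from 219 to 115 CPM and from 188 to 81.0 CPM (-0.91 ± 0.13 and -1.22 ± 0.11, SE, adjusted p 6.87e-05 and 3.44e-06).

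Of 12 genes for the secretion, rescue and clearance of plasma proteins, 4 fell in HG against LG, 1 rose and 6 fell in LGV against LG, 2 rose and 3 fell in HGV against HG, and 1 was higher and 4 lower in HGV against LGV. The shares of all tested genes called higher and lower were 12% and 12.7%, 21.7% and 19.9%, 25.8% and 20.2%, and 21.2% and 19.5% in that order. FCGRT, the receptor that spares albumin and IgG from breakdown, fell from 129.99 to 86.4 CPM with VPA in low glucose (-0.58 ± 0.13, SE, adjusted p 0.00196, edgeR) and was at 146 CPM in HGV (0.73 ± 0.12 against LGV, adjusted p 0.000146). ASGR1, a subunit of the receptor that clears desialylated glycoproteins, fell from 558 to 300.3 CPM and from 514 to 294 CPM with VPA (-0.88 ± 0.13 and -0.81 ± 0.13, adjusted p 0.000107 and 0.00023). EDEM1, which marks misfolded glycoproteins for degradation, and MCFD2, a cargo receptor subunit, fell in HG against LG (-1.20 ± 0.13 and -1.11 ± 0.14, adjusted p 2.84e-06 and 2.41e-05). Over all 9 lists, 100 genes other than the carriers entered the interaction test, which called 0 of them (16 at an unadjusted p under 0.05).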

How the data were processed

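Poly(A) RNA of HepG2 cells was sequenced with a directional kit. The authors trimmed reads (base quality 20), aligned them to GRCh37 with STAR, counted reads per gene with featureCounts (mapping quality 10) and deposited raw counts of genes with a mean of at least 10 reads. Whether counting used strand was not stated, so reads of genes that overlap on opposite strands could not be told apart. Per the labels the samples formed 4 groups of 3. From the deposited counts, each comparison was fitted on its 6 libraries with edgeR 4.0.16 in R 4.3.3 (TMM factors, mean count of at least 10, quasi-likelihood F test, Benjamini-Hochberg adjustment over all genes, threshold 0.05), and the interaction on all 12. DESeq2 1.42.0 served as an alternative. The fits were tested on simulated counts. TMM factors were 0.879 to 1.095. Levels are CPM over 12 libraries with these factors. Gene positions and lengths came from a GENCODE annotation on GRCh37 (97.5% of genes matched), and promoters from RefSeq on GRCh38.p14. Libraries of 1 group differed by more than counting noise.

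The carriers, lists and tests were chosen with earlier results of these data known. Of each list, named genes came from the called ones with the largest change (at most 4 per comparison), with the ones given here chosen among these, and the 5 genes most like ALB and AFP by Pearson's r (log2 CPM of at least 1). A few genes that this rule names are not reported here. Lists were the clade A serpins, other plasma carriers, chromosome neighbours, regulators, the transferrin, retinol and thyroid, vitamin D and secretion lists, and markers of 5 cell types. Alternatives covered scaling, test, filter, replicate block and leaving out single libraries. Intervals on shares cover counting error only.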

Additional observations from a re-analysis of the deposited data

How the results depend on the processing

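Of 765 recomputed fold changes of the carriers, 678 kept their direction and their side of the threshold, 41 fell short of it, 23 newly passed it and 23 changed sign. With an adjusted p of 0.01 or less, RBP4 was the only carrier called in HG against LG, LGV against LG and HGV against LGV. In HGV against HG 2 carriers were called at that threshold, RBP4 (adjusted p 0.00358, edgeR's quasi-likelihood test) and TTR (0.00914). Over all genes, 1852 were called at it in HG against LG, 4263 in HGV against LGV and 1 for the interaction. In LGV against LG 3 carriers were called with upper quartile factors and 2 with library size alone, which moved the median of all genes by 0.16 there and by 0.12 in HGV against HG. In HGV against LGV library size alone called 7 carriers. For the interaction, 1 carrier was called by the likelihood ratio test, and over all genes 1 with library size alone, 202 by the likelihood ratio test and 162 by the Wald test.

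AHSG in HG against LG changed sign with upper quartile factors (0.084), library size alone (0.090), TMM without the 10 genes (0.015), no filter (0.010) and 1 fit of 12 libraries (0.0072). ALB in HGV against HG was 0.012 with library size alone, FETUB there 0.043 with upper quartile factors and 0.10 with library size alone, and the AMBP interaction -0.021 with library size alone and -0.000484 with a filter of 1 CPM in 3 libraries. Without mitochondrial genes in the total, the carriers' share was 6.39% in HG and 4.83% in LGV. The cause of these changes was not tested.

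With 1 library left out at a time, the number of carriers called ran from 1 to 4 in HG against LG, 1 to 5 in LGV against LG, 2 to 3 in HGV against HG and 1 to 4 in HGV against LGV, and the number of all genes from 1933 to 5338, 4942 to 6986, 6083 to 7793, 4516 to 7228 and, for the interaction, 1 to 217. The difference ran from -0.084 to 0.11 for AHSG in HG against LG, from -0.17 to 0.40 for AFP and from -0.15 to 0.20 for FETUB in HGV against HG, and from -0.21 to 0.35 for AFP in HGV against LGV. The AMBP interaction ran from -0.11 to 0.13.

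Whether replicate numbers pair the libraries could not be decided from 3 libraries per group. The deviations of same-numbered libraries correlated from -0.325 to 0.00569 in HG against LG and from -0.263 to 0.476 in LGV against LG. They correlated from -0.324 to 0.392 in HGV against HG and from -0.0159 to 0.316 in HGV against LGV. The means were -0.18, 0.08, 0.13 and 0.13 in this order, and those of differently numbered libraries were 0.09, -0.04, -0.08 and -0.06. In the same order, 1, 3, 2 and 2 of 6 libraries correlated best with their own number. With the replicate number as a block, 7 carriers were called in HGV against LGV, ALB, AHSG and SERPINA1 beside the 4, ALB also in LGV against LG (adjusted p 0.0336), and 13 genes for the interaction. Among the 9 carriers, depth limits only FETUB, with 54 to 165 reads per library.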
